A study of Mus musculus with 24 samples.

Results

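The genes described here are 10 genes of antigen presentation and of Langerhans cells, out of the 18368 genes of the expression table: the MHC class II chain genes H2-Aa, H2-Ab1 and H2-Eb1, the peptide loading genes H2-DMa and H2-DMb1, the invariant chain gene Cd74, the class II transactivator Ciita, and Cd207, Epcam and Cd209a. They are a fixed list of names, put together with earlier results of these data known, and all 10 were found once each in the table and passed the filter on low values. The RNA came from skin of 12 CD1 mice, an outbred stock, 7 weeks old at wounding. Each mouse was used for a single site, abdomen, back or cheek (4 mice each), and gave 1 library of the wound bed at day 3 after a 2 mm punch and 1 library of unwounded skin taken as its paired control, so that the 24 libraries form 6 groups of 4. Abdomen and back carried 2 wounds per mouse and the cheek 1. The labels name no treatment other than wounding, and every unwounded library comes from a mouse that was also wounded.

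MHC class II molecules are pairs of an α and a β chain that hold peptides from ingested material on the cell surface for CD4+ T cells. Cd74, the invariant chain, occupies the groove until proteases remove it, the H2-DM heterodimer then exchanges the remaining fragment for a peptide, and Ciita switches the whole set of genes on. In skin, Langerhans cells of the epidermis, dendritic cells and macrophages of the dermis carry these molecules. Cd207 encodes langerin, the lectin of the Birbeck granules of Langerhans cells, which a subset of dermal dendritic cells also carries. Epcam encodes an adhesion protein of Langerhans cells that many epithelial cells share, and Cd209a encodes a lectin of dermal dendritic cells.

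Levels are given as FPKM (fragments per kilobase of transcript and relative to all mapped fragments). The values sum to between 490830 and 608888 per library, with between 15781 and 16577 genes above 0. The table has no fragment counts, so the depth is unknown and counting errors cannot be given. One library stood apart: the sum of 6 hair shaft and inner root sheath genes, which mark a growing follicle, was 4860 FPKM in the unwounded cheek library of mouse 4 and at most 79.3 in the 23 others. That library also had the lowest level of 5 of the 10 genes among all 24 libraries and of 7 among the 12 unwounded ones. Leaving cheek mouse 4 out changes 1 call of the averaged wound effect below, that of H2-DMa, and adds calls for Cd207 and Cd209a in cheek, for Cd207 in abdomen (limma adjusted p = 0.0307) and for H2-Ab1 in back (limma adjusted p = 0.0386). In whole skin, fewer cells of a type and less RNA per cell cannot be told apart.

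Averaged over the 3 sites, day 3 wounds had more RNA of all 7 genes of the class II pathway than the unwounded skin of the same mice, and less of Cd207, Cd209a and Epcam. The rises were of 1.39-fold to 1.65-fold and the falls to 0.627, 0.667 and 0.866 of the unwounded level, as geometric means over 12 mice on the scale of FPKM + 0.5. All 10 passed limma's moderated test at an adjusted p under 0.05, where 33.3% of the 14423 tested genes were higher and 29.4% were lower in wounds, so a call by itself was frequent in this comparison. The median log2 fold change of the 10 genes was 0.48 and that of all tested genes 0.02. At the threshold of 0.001 that the study used for wounds, 0 of the 10 genes were called in the averaged effect (background 33.4%), in abdomen (4.96%), in back (14.4%) or in cheek (8.69%), while 10, 3, 6 and 5 of them had an unadjusted limma p under 0.05 in these comparisons, as did 66.2%, 44.3%, 53.5% and 46.4% of all tested genes.

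**Figure D1:**
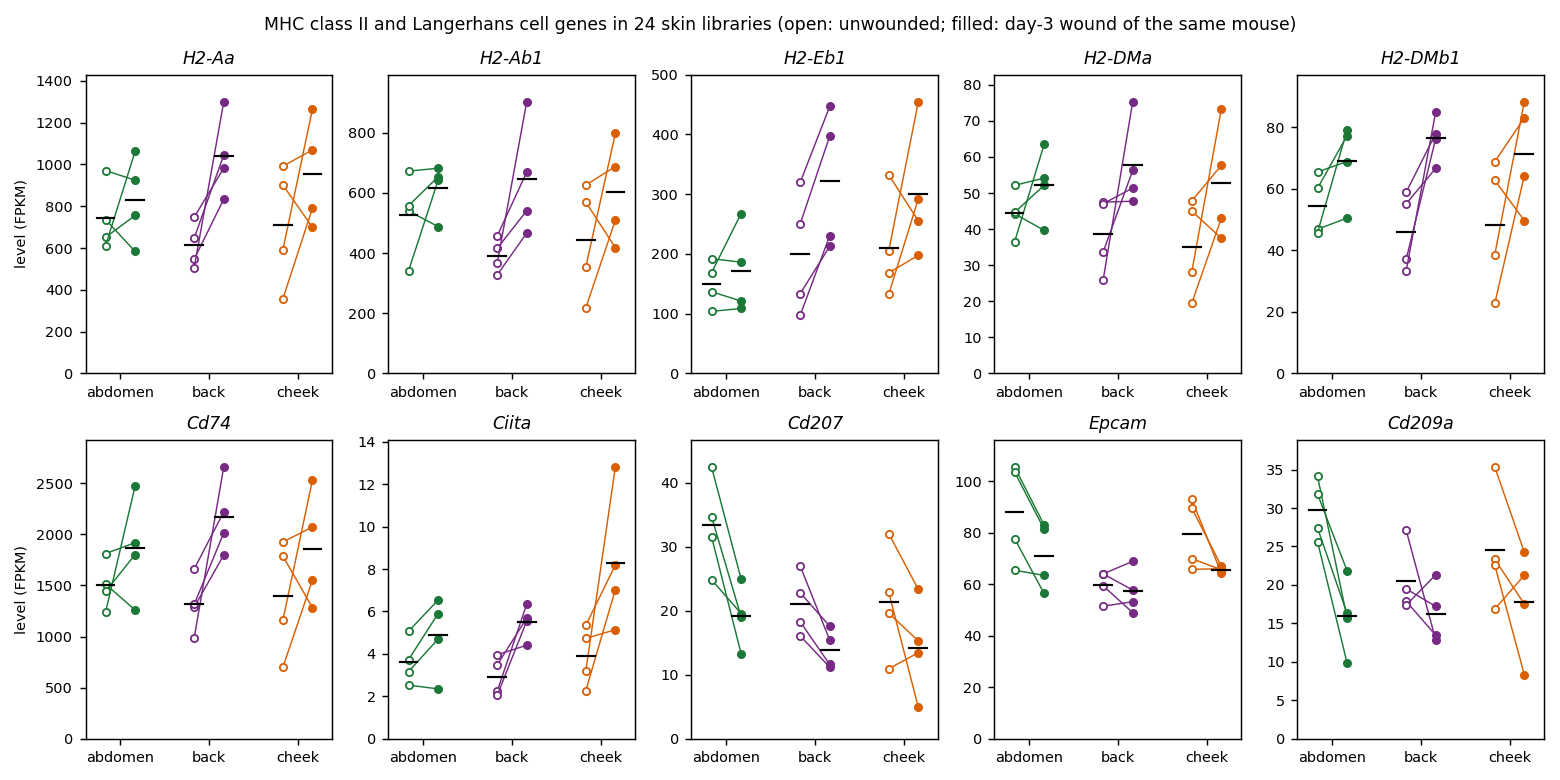
Level (FPKM, linear axes from 0) of the 10 genes in the 24 libraries. Open points are unwounded skin, filled points day 3 wounds, lines join both libraries of a mouse, and black bars are means of 4 libraries. The class II genes rise in all 4 back mice, while Cd207 falls in 11 of 12 mice.

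H2-Aa (gene identifier 14960, chromosome 17 of GRCm38, 34282744 to 34287823) encodes the α chain of the I-A molecule. In abdomen, the unwounded libraries of mice 1 to 4 had 736, 971, 652 and 612 FPKM and the wounds of the same mice 584, 925, 756 and 1063 FPKM. Back gave 547, 648, 748 and 506 FPKM in unwounded skin and 834, 1045, 983 and 1300.4 FPKM in the wounds. Cheek gave 992, 591, 902 and 356 FPKM in unwounded skin and 1069, 1264, 699 and 790.0 FPKM in the wounds. Every back wound was above every unwounded back library, whereas in abdomen and cheek the groups overlapped and 2 abdomen mice and cheek mouse 3 had less in the wound. The share of all tested genes with separate back groups was not counted, for this gene or for the genes below. In back, 53.5% of them had an unadjusted limma p under 0.05. The averaged wound effect was 0.47 on the log2 scale (standard error 0.15, limma adjusted p = 0.0135, higher in 9 of 12 mice).

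H2-Ab1 (gene identifier 14961, chromosome 17, 34263227 to 34269418) encodes the β chain that pairs with H2-Aa. Its unwounded abdomen libraries had 540.0, 673, 558 and 341 FPKM in mice 1 to 4 and their wounds 488, 682, 654 and 642 FPKM. The same order of mice gave 328, 457, 416 and 367 FPKM in back skin and 467, 669.7, 541 and 903 FPKM in back wounds. Cheek skin had 627, 354, 569.5 and 218 FPKM and cheek wounds 688, 798, 418 and 509.7 FPKM. As for its partner, only the back groups were separate among the 3 sites, and abdomen mouse 1 and cheek mouse 3 went down. The averaged effect was 0.49 (standard error 0.15, limma adjusted p = 0.0147, higher in 10 of 12 mice).

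H2-Eb1 (gene identifier 14969, chromosome 17, 34305867 to 34316674) encodes the β chain of the second class II molecule of the mouse, I-E. Abdomen skin held 137, 192, 104 and 169 FPKM in mice 1 to 4, and abdomen wounds 121, 186, 109 and 268 FPKM. Back skin held 133, 250.1, 319.7 and 97.4 FPKM and back wounds 213, 397, 447 and 231 FPKM. For cheek these values were 168, 206, 332 and 133 and 198, 455, 255 and 292 FPKM. H2-Eb1 rose in all 4 back mice and yet its back groups overlapped, because mice 2 and 3 of that site were above mice 1 and 4 before and after wounding. The averaged effect was 0.47 (standard error 0.13, limma adjusted p = 0.00755, higher in 9 of 12 mice), and without a term for the mouse the limma adjusted p was 0.0738.

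The promoters of these genes are known for a set of short elements that are read together with Ciita, among them the Y box, bound by NF-Y, and the X box, bound by RFX. RefSeq promoter entries of GRCm38.p6 were found for 7 of the 10 genes, and the last 130 bases before the annotated start are shown for 3 class II genes that hold these letters and for Cd207. Capitals mark GATTGG (on either strand, where it reads CCAATC) and AACTNNTGA. These letters were chosen after the sequences were seen.
H2-Aa, chr17:34287824-34287953, minus strand: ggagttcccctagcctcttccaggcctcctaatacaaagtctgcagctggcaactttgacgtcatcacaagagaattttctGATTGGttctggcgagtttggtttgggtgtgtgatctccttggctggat
H2-Eb1, chr17:34305737-34305866, plus strand: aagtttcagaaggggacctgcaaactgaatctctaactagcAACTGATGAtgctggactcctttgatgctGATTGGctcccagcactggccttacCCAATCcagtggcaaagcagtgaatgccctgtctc
H2-DMb1, chr17:34153061-34153190, plus strand: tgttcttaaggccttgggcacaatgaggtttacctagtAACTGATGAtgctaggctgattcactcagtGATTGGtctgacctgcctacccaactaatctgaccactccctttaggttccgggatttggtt
Cd207, chr6:83677858-83677987, minus strand: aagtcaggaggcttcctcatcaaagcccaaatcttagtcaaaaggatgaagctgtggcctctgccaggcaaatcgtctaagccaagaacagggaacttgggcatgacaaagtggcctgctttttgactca

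GATTGG begins 49 bases before the start of H2-Aa, 60 before that of H2-Eb1 and 62 before that of H2-DMb1. H2-Eb1 and H2-DMb1 also hold AACTNNTGA, 89 and 92 bases before the start, and H2-Eb1 has GATTGG on the other strand 35 bases before the start. Over 250 bases before the start, GATTGG on either strand was present in 14.6% of the 32851 promoter entries, AACTNNTGA on either strand in 3.19%, and both on the strand of the gene in 0.1%. Neither set of letters was in this window of Cd207, Epcam or Cd209a. H2-DMa, which rose in wounds, has 2 entries, of which one holds neither and the other GATTGG alone, 199 bases before the start, so the letters do not separate the genes that rose from those that fell. The pair of motifs does not overlap in any of the sequences shown, and a match of letters is a description, not a measured binding site.

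The genes that load and accompany class II molecules moved with the chains. Cd74 (gene identifier 16149, chromosome 18, 60803849 to 60812652) had the highest level of the 10 genes per transcript length. Its unwounded libraries had 1512, 1811, 1441 and 1238 FPKM in abdomen, 1288, 1315, 1661 and 989 FPKM in back and 1925, 1158, 1788 and 698 FPKM in cheek. The wounds of the same mice had 1259, 1918, 1801 and 2474 FPKM in abdomen, 1798, 2014, 2219 and 2658 FPKM in back and 2071, 2528, 1283 and 1552 FPKM in cheek. Back wounds lay above all unwounded back libraries, and the lowest wound values were those of abdomen mouse 1 and cheek mouse 3. The averaged wound effect of Cd74 was 0.50 (standard error 0.16, limma adjusted p = 0.0156, higher in 10 of 12 mice).

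H2-DMa and H2-DMb1 (gene identifiers 14998 and 14999, chromosome 17, 34119693 to 34139101 and 34153191 to 34160229) encode both chains of the peptide exchange factor. H2-DMa was at 44.3, 52.1, 44.6 and 36.4 FPKM in unwounded abdomen, 47.5, 33.7, 47.0 and 25.9 in back and 47.8, 28.2, 45.0 and 19.5 in cheek. Its wounds had 39.7, 54.1, 52.1 and 63.5 FPKM in abdomen, 47.7, 56.3, 51.4 and 75.3 in back and 57.7, 73.3, 37.5 and 43.0 in cheek. All 4 back mice and 3 of 4 abdomen and cheek mice had more H2-DMa in the wound. H2-DMb1 was at 46.9, 65.5, 60.2 and 45.8 FPKM in unwounded abdomen, 55.1, 37.1, 58.9 and 33.3 in back and 68.8, 38.6, 62.8 and 22.7 in cheek. Its wounds had 50.5, 68.9, 77.3 and 79.2 FPKM in abdomen, 66.7, 76.3, 78.0 and 85.0 in back and 83.1, 88.3, 49.7 and 64.3 in cheek. Both genes had back wounds above all unwounded back libraries and a fall in cheek mouse 3. For H2-DMa this rested on a narrow margin, 47.74 FPKM in the lowest back wound against 47.47 in the highest unwounded back library. Both values were those of back mouse 1, which changed by 0.008 on the log2 scale. The back effect of H2-DMa was 0.60 and was not called (limma adjusted p = 0.112). H2-DMb1 rose by 0.58 (standard error 0.15, limma adjusted p = 0.00628, 11 of 12 mice) and H2-DMa by 0.48 (standard error 0.17, limma adjusted p = 0.0249, 10 of 12 mice). H2-DMb1 has a near-identical neighbour, H2-DMb2, so that reads may have been divided between both. The call for H2-DMa was lost when abdomen mouse 4, cheek mouse 2 or cheek mouse 4 was left out (limma adjusted p from 0.0564 to 0.0573).

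Ciita (gene identifier 12265, chromosome 16, 10480014 to 10531064) had the lowest level of the 10 genes and the largest averaged rise. Its unwounded libraries had 3.17, 5.07, 2.53 and 3.73 FPKM in abdomen, 3.48, 2.24, 3.96 and 2.05 FPKM in back and 5.35, 3.20, 4.73 and 2.27 FPKM in cheek. In wounds it had 4.70, 6.54, 2.35 and 5.90 FPKM in abdomen, 5.69, 6.35, 4.41 and 5.55 FPKM in back and 8.19, 12.8, 5.14 and 7.03 FPKM in cheek. The back groups were separate, all 4 cheek mice went up, and 1 mouse of 12 (abdomen mouse 3) had less in the wound. The averaged effect was 0.72 (standard error 0.15, limma adjusted p = 0.00118). Within mice, this rise exceeded that of H2-Ab1 by 0.24 ± 0.40 (SD, n = 12) on the log2 scale, in 8 of 12 mice, which did not pass the exact two-sided permutation test by sign changes (p = 0.0674, adjusted over the 5 differences tested p = 0.0842). With a pseudocount of 0.1 the difference was 0.30 with an adjusted exact p of 0.0421, so this call depends on the pseudocount. H2-DMa and H2-Ab1 differed by -0.0036 ± 0.22 (SD, n = 12; exact permutation p = 0.955), with single mice between -0.50 and 0.22.

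Cd207 (gene identifier 246278, chromosome 6, 83671207 to 83677857) fell in 11 of 12 mice. Its unwounded libraries had 31.6, 42.5, 34.7 and 24.9 FPKM in abdomen, 18.3, 16.1, 27.0 and 22.8 FPKM in back and 32.0, 19.6, 22.9 and 11.0 FPKM in cheek. The wounds had 13.3, 25.0, 19.1 and 19.6 FPKM in abdomen, 11.6, 11.2, 15.4 and 17.6 FPKM in back and 23.4, 15.3, 4.89 and 13.4 FPKM in cheek. All abdomen and back mice had less in the wound, the wound of cheek mouse 3 had the lowest value of the 24 libraries, and the exception was cheek mouse 4, whose unwounded library was the one with growing follicle genes and had the lowest unwounded value. Unwounded and wound libraries overlapped at each site. The averaged fall was by 0.67 on the log2 scale (standard error 0.17, limma adjusted p = 0.00413).

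Cd209a (gene identifier 170786, chromosome 8, 3743395 to 3748984) fell in 10 of 12 mice. Unwounded libraries had 25.6, 27.4, 34.1 and 31.8 FPKM in abdomen, 17.9, 19.5, 27.1 and 17.4 FPKM in back and 35.3, 23.3, 22.6 and 16.9 FPKM in cheek. Wounds had 9.85, 16.3, 15.7 and 21.9 FPKM in abdomen, 13.5, 17.2, 12.9 and 21.3 FPKM in back and 24.3, 17.5, 8.33 and 21.3 FPKM in cheek. Abdomen was the site at which every wound was below every unwounded library, and the exceptions to the fall were back mouse 4 and cheek mouse 4. How many of all tested genes had separate abdomen groups was not counted, and 44.3% of them had an unadjusted limma p under 0.05 there. The averaged fall was by 0.59 (standard error 0.14, limma adjusted p = 0.00395).

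Epcam (gene identifier 17075, chromosome 17, 87635979 to 87651127) changed least. Its libraries had 77.8, 106, 104 and 65.5 FPKM in unwounded abdomen and 56.4, 83.04, 81.4 and 63.4 FPKM in abdomen wounds, 59.4, 51.5, 64.0 and 64.0 in unwounded back and 49.0, 53.2, 57.8 and 68.9 in back wounds, and 65.8, 69.9, 93.0 and 89.6 in unwounded cheek and 66.0, 65.6, 64.2 and 67.0 in cheek wounds. The 4 cheek wounds lay within a narrow range, while all 4 abdomen mice and 2 of 4 back mice had less in the wound. The averaged fall was by 0.21 (standard error 0.06, limma adjusted p = 0.00781, lower in 9 of 12 mice). Markers of other epithelial cells moved in both directions. The summed level of 8 genes of simple epithelium (glands, ducts, Merkel cells) was between 47.1 and 92.0 FPKM in unwounded skin and between 37.7 and 59.3 in wounds. Most of this sum was Cldn4, with a mean of 41.2 FPKM in skin and 36.3 in wounds. On the log2 scale Cldn3 fell by 1.25 and Krt20 by 1.08, while Aqp5 rose by 0.77 and Krt19 by 0.30. The median log2 fold change of the 8 genes was 0.02. The part of these cells in the fall of Epcam was not tested.

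The wound effects of Cd207 and Cd209a differed in amount from that of H2-Ab1 within the same mice, but not always in direction. Cd207 and H2-Ab1 both fell in abdomen mouse 1 and cheek mouse 3 and both rose in cheek mouse 4. The same held for Cd209a and H2-Ab1, which also both rose in back mouse 4. The wound effect of Cd207 was below that of H2-Ab1 by 1.16 on the log2 scale (mean difference -1.16 ± 0.33, SD, n = 12), in 12 of 12 mice, with single mice between -1.67 and -0.58 (exact two-sided permutation test by sign changes, p = 0.000488, the smallest that 12 mice allow, adjusted over the 5 differences p = 0.00122). For Cd209a the mean difference from H2-Ab1 was -1.07 ± 0.31 (SD, n = 12), again in 12 of 12 mice (exact p = 0.000488, adjusted p = 0.00122). Epcam fell less than Cd207, by a mean difference of 0.47 ± 0.51 (SD, n = 12) in 11 of 12 mice (exact permutation p = 0.00732, adjusted p = 0.0122). A mouse whose class II level fell in the wound, such as cheek mouse 3, still had a larger fall of Cd207, and cheek mouse 4, in which Cd207 went up by 0.28, had a rise of 1.22 in H2-Ab1.

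**Figure D2:**
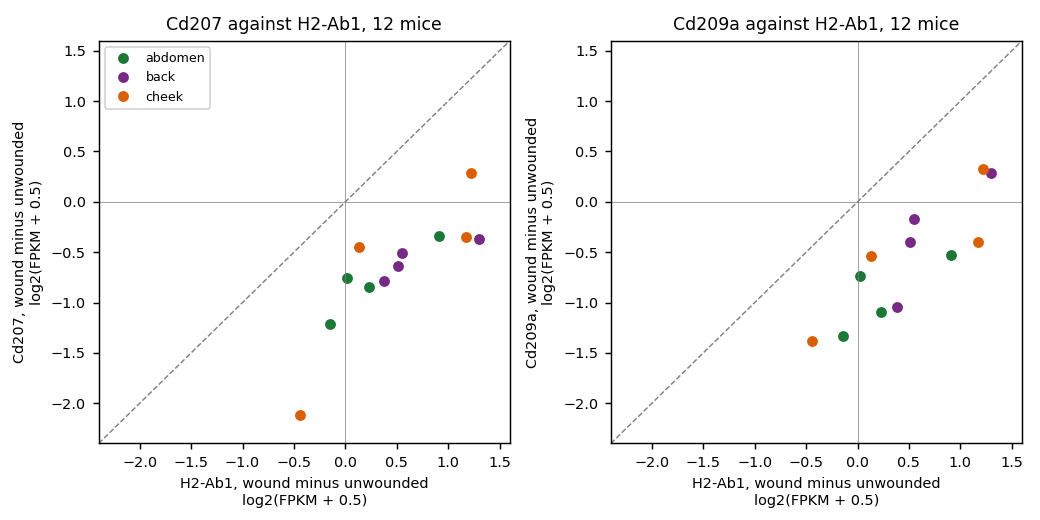
Wound minus unwounded log2(FPKM + 0.5) of Cd207 (left) and Cd209a (right) against that of H2-Ab1 in the 12 mice, coloured by site. The dashed line marks equal change, and all 12 mice lie below it in both panels.

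By site, back had the most calls among the class II genes. In back, 5 of the 10 genes were higher (H2-Aa, H2-Eb1, H2-DMb1, Cd74 and Ciita, with effects from 0.73 to 0.84) and 0 were lower, where the background was 28% higher and 17.9% lower. H2-Ab1 just missed the threshold there (0.68, limma adjusted p = 0.0507). In abdomen, 0 were higher and 2 were lower (Cd209a by 0.92, limma adjusted p = 0.0156, and Epcam by 0.30, limma adjusted p = 0.0394), against a background of 16.9% higher and 16% lower. Cd207 had the effect of -0.79 in abdomen with a limma adjusted p of 0.055, which was under 0.05 in 5 of 9 other settings (0.0116 to 0.1001 over all 9). In cheek, 1 was higher (Ciita by 0.99, limma adjusted p = 0.011) and 0 were lower, against 19.7% and 16.9%. The 7 class II genes had positive effects at each site, except that in abdomen quantile normalization gave -0.04 for H2-Aa and -0.00099 for H2-Eb1, and leaving out abdomen mouse 4 gave -0.06 and -0.05.

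These counts rested on single mice. The back count of higher genes was 0 without back mouse 4, 1 without back mouse 2 and 3 without back mouse 1 or mouse 3. The abdomen count of lower genes was 0 without abdomen mouse 1 or mouse 3, and 1 without abdomen mouse 2 or back mouse 3. In cheek, 7 genes were higher without mouse 3, namely all 7 of the class II pathway, 0 were higher without mouse 2, and Cd207 and Cd209a were both lower without mouse 4, the mouse with the growing follicle library. Leaving out cheek mouse 3 also added calls at the other sites, where the effects stayed the same. Cd207 was then lower in abdomen (limma adjusted p = 0.00196) and in back (limma adjusted p = 0.00672), and H2-Ab1 was higher in back (limma adjusted p = 0.0222). The wound of cheek mouse 3 had a summed macrophage and monocyte level of 2729 FPKM and a summed neutrophil level of 1415 FPKM, inside the ranges of the other wounds. It had, however, the highest wound values of the neutrophil genes Csf3r (39.7 FPKM, next 24.7), Cxcr2 (27.7, next 16.2), Mmp8 (5.97, next 4.93) and Ly6g (0.90, next 0.62), which the sum, carried by S100a8 and S100a9, does not show. Its S100a8 and S100a9 (493 and 791 FPKM) were not the highest, with 994 and 1348 FPKM in the wound of abdomen mouse 1. The genes with highest values were picked from the list of 8 neutrophil genes after that library stood out. Their part in its low class II and Cd207 levels was not tested.

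A difference of the wound effect between the sites was not shown. In limma's moderated F test of the 3 wound effects, 0 of the 10 genes had an adjusted p under 0.05 and 0 an unadjusted p under 0.05 (background 0.0208%, 3 genes, and 12.9% at an unadjusted p under 0.05), with adjusted p values from 0.52 to 0.94. The pattern of calls by site is therefore a description of each site and not of a difference between sites.

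**Figure D3:**
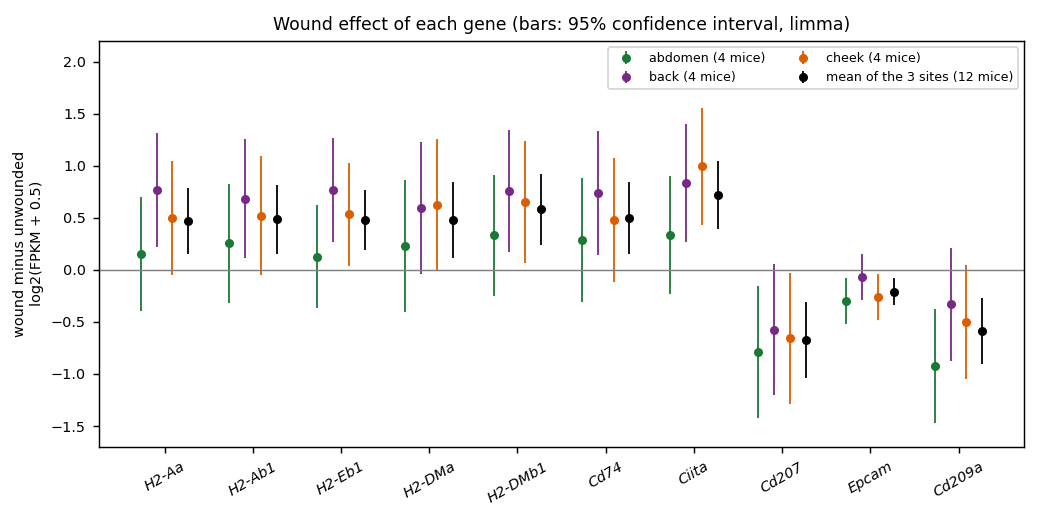
Wound effect of each gene on the log2(FPKM + 0.5) scale in abdomen, back and cheek (4 mice each) and averaged (12 mice), with 95% confidence intervals from limma. The averaged intervals of the 7 class II pathway genes lie above 0 and those of Cd207, Epcam and Cd209a below 0, while the intervals of the 3 sites overlap for every gene.

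Between unwounded sites, none of the 10 genes passed a limma adjusted p of 0.05. The counts were 0 for back against abdomen (background 2.67%, with 3 of the 10 at an unadjusted p under 0.05), 0 for cheek against abdomen (2.57%, 1 of 10) and 0 for cheek against back (1.05%, 1 of 10). Of all tested genes, 22%, 19% and 21.6% had such an unadjusted p in these pairs. In order of the mean level, Cd207 had 33.4 ± 7.31 FPKM (SD, n = 4) in abdomen, 21.4 ± 8.71 in cheek and 21.1 ± 4.86 in back, and cheek and back were inside each other's spread. Cd209a had 29.7 ± 3.90 FPKM in abdomen, 24.5 ± 7.76 in cheek and 20.5 ± 4.52 in back, and Epcam 88.1 ± 19.7, 79.6 ± 13.7 and 59.7 ± 5.92 FPKM. The order abdomen, cheek, back held for 7 of the 10 genes in unwounded skin, H2-Aa, H2-Ab1, H2-DMb1 and Cd74 being the others. Over all tested genes the median was itself -0.12 (back against abdomen) and 0.14 (cheek against back). Relative to it, back was below abdomen by -0.54 for Cd207, -0.43 for Cd209a and -0.42 for Epcam on the log2 scale, with limma adjusted p values of 0.201, 0.151 and 0.101 before that shift. The Epcam difference had an adjusted p of 0.0307 with all 24 libraries in 1 model and of 0.036 without abdomen mouse 4.

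Among wounds the counts were also 0 for back against abdomen (background 1.27%, 2 of 10 at an unadjusted p under 0.05), cheek against abdomen (10.8%, 2 of 10) and cheek against back (2.5%, 0 of 10), where 16.5%, 31.6% and 26.1% of all tested genes had such an unadjusted p. The widest gap was in H2-Eb1, which had 322 ± 118 FPKM in back wounds, 300.0 ± 110.2 in cheek wounds and 171 ± 72.9 in abdomen wounds (SD, n = 4 each), a log2 difference of 0.93 for back against abdomen (limma adjusted p = 0.218). Ciita was next, with 8.29 ± 3.26 FPKM in cheek wounds, 5.50 ± 0.806 in back wounds and 4.87 ± 1.85 in abdomen wounds (cheek against abdomen 0.72, limma adjusted p = 0.121).

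The H2 genes are among the most polymorphic of the genome, and CD1 mice are outbred, so that each mouse can carry other haplotypes and reads were aligned to a single reference. The labels give no haplotypes, and their part in the values below was not tested. H2-Ea-ps (gene identifier 100504404, chromosome 17, 34341952 to 34344645) is the copy of the I-E α chain gene in the reference strain, where it is annotated as a transcribed pseudogene because that haplotype does not make the chain. It was above 100 FPKM in both libraries of 4 mice and under 10 FPKM in both libraries of 8, with no mouse between. The 4 mice were abdomen mice 3 and 4 (182 and 161 FPKM in skin, 198 and 269 in wounds) and back mice 1 and 3 (149 and 193 in skin, 233 and 249.6 in wounds). In the 8 others the highest value was 3.52 FPKM, and 5 libraries were listed at 0, among them both libraries of back mouse 2 and of cheek mouse 4. All 4 cheek mice were among the low ones, so the site and this gene cannot be told apart in a comparison of cheek with the others.

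H2-Ab1 and H2-Eb1 also differed between mice in a way that both libraries of a mouse shared, when set against Cd74, which lies on another chromosome. The ratio of H2-Ab1 to Cd74 (FPKM to FPKM) was between 0.250 and 0.276 in skin and between 0.244 and 0.260 in wounds of abdomen mouse 4 and back mice 1 and 3. In the 9 other mice it was between 0.306 and 0.387 in skin and between 0.316 and 0.388 in wounds. The ratio of H2-Eb1 to Cd74 was between 0.178 and 0.192 in skin and between 0.180 and 0.201 in wounds of back mice 2 and 3 and cheek mice 2, 3 and 4. The 7 others had between 0.0721 and 0.136 in skin and between 0.0604 and 0.118 in wounds. None of the 5 mice with the higher ratio was an abdomen mouse, so site and ratio overlap where H2-Eb1 of abdomen wounds is compared with the other wounds. The part of each in that gap was not tested. Because the mice fell into separate sets, no correlation over all 12 is given. The sets were cut at gaps in the wound ratios, the widest for H2-Ab1 and the upper of the 2 widest for H2-Eb1. Members of a set were thus chosen on 1 of the values compared, so the p-values within sets are descriptions only. Within the 9 mice, the log2 ratio of H2-Ab1 to Cd74 in skin and in wounds had a Pearson r of 0.74 (exact permutation p = 0.0214, adjusted over the 8 relations computed p = 0.0429) and a Spearman rho of 0.88 (exact p = 0.00308), and without the 2 mice farthest from the median r was 0.60 (exact p = 0.15), so the relation within this set rests on those mice. Within the 7 mice, H2-Eb1 gave an r of 0.76 (exact p = 0.0661, adjusted p = 0.0881), a rho of 0.79 (exact p = 0.048) and, without the 2 farthest, an r of 0.36 (exact p = 0.625).

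Of the other genes, H2-Aa kept the closest ratio to Cd74 across mice in skin. It had a standard deviation of 0.098 on the log2 scale over the 12 skin libraries, against 0.17 for H2-DMa, 0.16 for H2-DMb1, 0.21 for H2-Ab1, 0.33 for Cd207 and 0.53 for H2-Eb1. Its values in skin and wounds had an r of 0.58 and a rho of 0.50 (permutation test, p = 0.0497 and 0.103, adjusted over 6 relations p = 0.0745), and 0.68 after the means of the sites were removed (adjusted permutation p = 0.0314). H2-DMa and H2-DMb1 had r values of -0.21 and 0.034 (permutation p = 0.483 and 0.919, rho -0.19 and -0.091, p = 0.56 and 0.781). Cd207 to Cd74 had an r of 0.69 and a rho of 0.66 (permutation p = 0.0146 and 0.0235, adjusted p = 0.0293). That relation rested on a few mice, since r was 0.54 without the 2 mice farthest from the median (adjusted permutation p = 0.157) and 0.46 with site means removed (adjusted permutation p = 0.197).

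**Figure D4:**
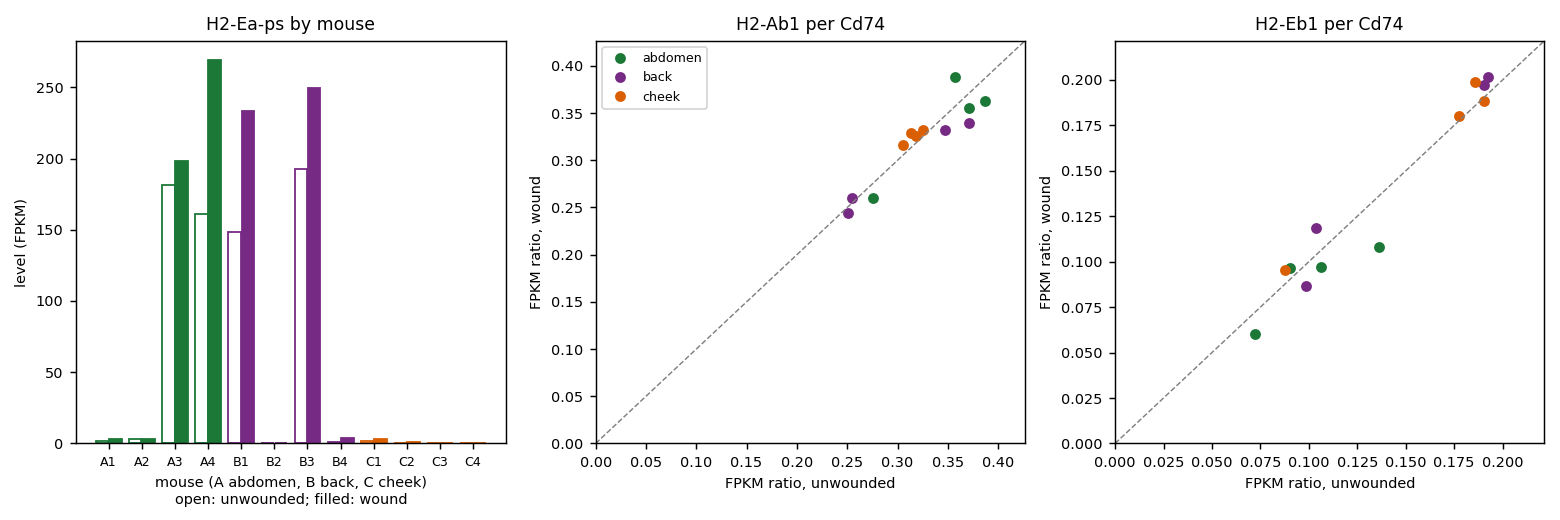
H2-Ea-ps level (FPKM) in both libraries of each mouse (left), and the FPKM ratio of H2-Ab1 (middle) and of H2-Eb1 (right) to Cd74 in the wound against that in unwounded skin, 1 point per mouse with the line of equality dashed. H2-Ea-ps is above 100 FPKM in 4 mice and at or under 3.52 in 8, and the ratios stay near the line.

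Abdomen mouse 3 combined the extremes of several of these genes. It had the highest ratio of H2-Ab1 to Cd74 in skin (0.387), the lowest ratio of H2-Eb1 to Cd74 (0.0721), H2-Ea-ps at 182 FPKM, the class I gene H2-Q2 at 0.22 FPKM in skin and 0.11 in the wound, and H2-K1 at 616 FPKM in skin. In the 11 other mice H2-Q2 was between 8.04 and 40.7 FPKM. Whether these values come from genes that were expressed less or from reads that did not align to the reference was not tested.

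Over the 24 libraries, with the means of the 6 groups removed, the genes most like H2-Ab1 were H2-Aa (Pearson r 0.91), H2-DMb2 (0.89), Cd74 (0.88), Arhgdib (0.87) and Napsa (0.86). H2-DMa ranked 8, H2-DMb1 13 and Cd207 47 among all tested genes, whereas H2-Eb1, with an r of 0.31, ranked 2703. The genes most like Cd207 were Xcr1 (0.91), a chemokine receptor gene of cross-presenting dendritic cells, Septin3 (0.89), Klrb1b (0.88), the chemokine gene Ccl19 (0.87) and Hepacam2 (0.86). Cd209a ranked 29 for Cd207, with an r of 0.78, and Epcam 3063, with 0.28. These coefficients share libraries, mice and scaling and are given as descriptions.

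The other genes of the class II pathway rose more widely than they fell. Of 15 tested, 9 were higher and 1 was lower in the averaged wound effect, with a median log2 fold change of 0.32. Over all tested genes, 33.3% were higher and 29.4% lower in this comparison. The list counts that follow for the averaged effect are to be read against these shares. The proteases and reductase of the antigen processing compartment rose most, namely Ctss, which removes the invariant chain (2.23), Lgmn (1.64) and Ifi30 (0.70). Cd83, which stabilises class II at the surface, rose by 0.68 and Marchf1, the ligase that sends it to degradation, by 0.32. H2-DMb2 (0.49) and H2-Oa (0.52) rose by as much as the chain genes, and H2-Ob had 0.14 (limma adjusted p = 0.367). H2-Ea-ps had 0.51, but this mean includes 8 mice at or under 3.52 FPKM, where the pseudocount of 0.5 weighs on the change. It was higher in the wound in each of the 4 mice above 100 FPKM. Among the factors that bind the X and Y boxes, Nfya rose by 0.26 and Nfyb fell by 0.34, while Nfyc (0.03), Rfx5 (0.02), Rfxank (0.08) and Rfxap (-0.14) had limma adjusted p values of 0.058 or more.

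Interferon-γ is known to switch Ciita on in cells that do not otherwise carry class II. Of 10 tested genes of its response, 9 were higher and 0 lower in the averaged effect (median 0.96), led by Cxcl10 (2.34) and Cxcl9 (1.29). Of 17 genes of MHC class I and its processing, 14 were higher and 0 lower (median 0.42), with H2-Q10 (0.58) and Psmb8 (0.57) the largest. Abdomen had 9 of the 10 interferon-γ response genes called higher, back 6 and cheek 3. At these sites, 16.9%, 28% and 19.7% of all tested genes were called higher. Such counts do not test a difference between sites. Whether interferon-γ had a part in the change of Ciita or of the other class II genes was not tested. Ifng itself was at most 0.95 FPKM in any library and was not tested, and Ido1 was under 0.5 FPKM in every library. Of 26 other Langerhans and dendritic cell genes, 15 were higher and 5 lower in the averaged effect (median 0.45). The shares over all tested genes were 33.3% higher and 29.4% lower. Ccr7 (1.69), the receptor that guides dendritic cells to the lymph node, and Fscn1 (1.66), an actin bundling protein of mature dendritic cells, rose most, and Cd209b (-1.23), of the same cluster as Cd209a, and Irf4 (-0.82) fell most.

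Markers of other cells that carry class II or surround Langerhans cells moved with the wounds too. In the averaged effect, 33.3% of all tested genes were higher and 29.4% lower. The summed level of 12 macrophage and monocyte genes was between 845 and 1826 FPKM in skin and between 1784 and 3231 in wounds, with 11 of 12 higher (median 0.95, Fcgr1 2.44 and Ccr2 1.74) and Cd163 lower (-0.33). For 8 neutrophil genes the sums were between 15.2 and 47.8 FPKM in skin and between 367 and 2414 in wounds, and 8 of 8 were higher (median 2.86), S100a9 by 6.74 and S100a8 by 6.31. Cd79b, which encodes a chain of the B cell receptor complex, rose by 0.93. Of 6 T cell genes, 4 fell (Cd3g by 0.88 and Trat1 by 0.83 most) and Lck rose by 0.32 (median -0.44), with sums between 22.4 and 61.5 FPKM in skin and between 18.2 and 39.0 in wounds. The part of any of these cells in the change of the 10 genes was not tested.

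The structural cells changed in both directions, at counts to be read against 33.3% higher and 29.4% lower of all tested genes. Of 8 genes of the interfollicular epidermis, where Langerhans cells lie, 3 rose (Krt14 by 1.82 and Krt1 by 1.61 among them) and 2 fell (Flg2 by 1.55 and Krt15 by 0.88), with sums between 6591 and 11710 FPKM in skin and between 11028 and 18832 in wounds. The simple epithelium genes had 2 rises (Aqp5 0.77 and Krt19 0.30) beside their 2 falls. Of 6 sebaceous gland genes, Mgst1 fell by 0.56 and Scd1 by 0.42 and Soat1 rose by 0.45, and of 6 fibroblast genes, 4 fell, led by Col1a2 by 1.09 and Col1a1 by 0.84, and Pdgfra rose by 0.39. The 6 growing follicle genes had 0 calls in the averaged effect by limma (median -1.22). The epidermal sum was carried by Krt14 and Krt1, and the median log2 fold change of the 8 genes was 0.02. How much of the fall of Cd207 followed the share of epidermis in a library was not tested.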

How the data were processed

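The authors sequenced 24 libraries with paired-end reads (BGISEQ-500), mapped them to mm10 with HISAT2 and Bowtie2 2.2.5 and quantified them with RSEM 1.2.12. They deposited FPKM values per library, not scaled between libraries, and log2 fold changes and adjusted p-values of their own DESeq2 comparisons, which were not used. Here log2(FPKM + 0.5) was fitted with limma 3.58.1 (R 4.3.3), with trended and robust moderation, over genes that reached 0.5 FPKM in 4 or more libraries of a fit, and p-values were adjusted by Benjamini-Hochberg over all tested genes. Wound effects had a term for each mouse, from the labels. Deviations of both libraries of a mouse from their group means correlated (mean r by site 0.281 to 0.348, lowest pair -0.030), against a mean r of -0.116 to -0.0958 between mice. With group means removed, a positive r within mice forces a negative mean r between mice, which is thus no separate support. Comparisons of sites used the 12 unwounded or the 12 wound libraries alone. Permutation tests were two-sided, by all sign changes, all pairings, or 100000 resampled pairings over 12 mice. Models were tested on simulated data. All 24 per-library columns were used and 0 were left out.

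The 10 genes and the gene lists were chosen with earlier results of these data known. Named by rule were the 10 genes in every library, all tested class II pathway genes, up to 2 rises and 2 falls from each other list, and the 5 genes most like H2-Ab1 and Cd207. H2-Q2 and H2-K1 were named after their values were seen. Alternatives were other pseudocounts, filters, scalings, moderation, model terms, a threshold of 0.001 and each mouse left out. The counts of 1 further marker list are not reported here.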

Additional observations from a re-analysis of the deposited data

How the results depend on the processing

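In the averaged wound effect, the 7 rises and 3 falls gave 6 to 7 rises and 3 falls with each mouse left out. With no replicate block (no term pairing both libraries of a mouse), 6 rose and 3 fell, and abdomen had 1 fall in place of 2. At an adjusted p under 0.001 each wound count was 0. Cheek had 1 fall (Epcam) with median-ratio scaling and 1 with quantile normalization, under which back had 2 rises. Back had 1 fall (Cd207) in a model of its own 8 libraries. Among wounds, 1 gene (Ciita) differed between sites with a replicate block on the mouse number, which marks different mice at each site, and among unwounded sites 1 gene (Epcam) did with all 24 libraries in 1 model. With each mouse left out, falls numbered 0 to 3 in abdomen, 0 to 1 in back and 0 to 2 in cheek, rises 0 to 6 in back and 0 to 7 in cheek, and 0 to 1 gene differed between unwounded sites. The causes of these changes were not tested. Of 2090 single-gene values recomputed, 2026 stayed on their side of the threshold, 35 lost and 29 gained a call, and no called value changed sign.

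The differences of Cd207, Cd209a and Epcam from their partner genes stayed past the threshold under each setting run. That of Ciita from H2-Ab1 was 0.30 with a pseudocount of 0.1 (adjusted exact p = 0.0421) and 0.19 to 0.29 with each mouse left out, passing without abdomen mouse 3 or mouse 4. The r of the Cd207 to Cd74 ratio was 0.46 with site means removed, 0.54 without the 2 farthest mice and 0.59 to 0.81 with each mouse left out, and that of H2-Aa was 0.68 with site means removed and 0.48 to 0.66 with each mouse left out. FPKM values hide the depth, so the precision of low values such as those of Ciita is unknown. The limma p-values of a site rest on a spread estimated over the mice of all sites together, not over its 4 mice alone. Models of a site on its own libraries are the exception.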
